A study of Mus musculus with 6 samples.

Results

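Aqp1, Aqp3, Aqp4 and Aqp5 encode water channels, and Atp1b1, Atp1b2 and Atp1b3 encode the beta subunits of the sodium pump. All 7 were measured among 22180 genes in cells sorted from mouse gliomas. They were chosen by gene family with the results of this comparison in view, Aqp1 and Atp1b1 because they lie among its largest rises, so that the differences of the 7 between the groups are given as a description, with no test. The rule took probe sets with exactly 1 gene symbol, and each of the 7 genes had 1 such probe set. The cells with Tie2-Cre came from 3 mice of the genotype Tie2-Cre,Pfn1fl/fl:Y129F (mice 1, 3 and 4). The cells without Cre came from 3 mice of the genotype Pfn1fl/fl:Y129F (mice 6, 7 and 10), so both groups carried the floxed Pfn1 alleles and the Y129F form of profilin-1, an actin-binding protein. Tie2-Cre is driven by the promoter of Tek, a gene of endothelial cells that is also active in part of the blood lineage, and the ages of the mice are not given in the sources used here. In both groups cells were selected magnetically with an antibody to CD105 and exposed to medium conditioned by glioma cells for 12 h, and each mouse gave 1 array. The series asks what phosphorylation of profilin-1 does to gene expression in endothelial cells of gliomas.

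Aquaporins are membrane pores that let water pass along osmotic gradients, and Aqp3 also carries glycerol. The sodium pump moves sodium out of the cell and potassium into it at the cost of ATP. Its alpha subunit carries out the transport, its beta subunit is needed to fold the pump and bring it to the surface, and FXYD proteins tune its activity. In the brain, Aqp1 is best known from the choroid plexus and Aqp4 from the endfeet of astrocytes. Outside the brain, Aqp1 is found in capillary endothelium, red blood cells and the kidney.

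Signals in the 2 groups of 3 arrays were close in scale. Over the 22180 genes, the median log2 intensity per array was 7.08 to 7.14. Between Tie2-Cre and no Cre arrays, 12.0% of all genes passed a threshold of a Benjamini-Hochberg adjusted p under 0.05 (limma), 4.78% as higher and 7.17% as lower with Tie2-Cre. The arrays also parted by sex-linked genes. The Y-linked gene Uty had log2 levels of 9.16 to 9.41 in the Tie2-Cre mice, against 4.52 to 4.97 in the mice without Cre, and Xist had 5.36 to 6.06 in the Tie2-Cre mice, against 11.16 to 11.44 in the others, so that Cre and sex cannot be told apart in any difference given here. The labelled cell type rests on the sort for CD105. Levels of different probe sets cannot be compared and the deposited table has no detection calls, so the 12 endothelial markers measured do not show whether the cells expressed them. Their median difference was -0.013 log2, and 1 of the 12 passed the threshold: Eng, the gene of CD105, at a mean of 11.76 with Tie2-Cre and 12.05 without Cre. The other endothelial markers had mean log2 levels over the 6 arrays from 4.27 (Emcn) to 7.31 (Egfl7). The 10 pericyte and smooth muscle markers ran from 7.07 (Abcc9) to 13.54 (Acta2), and the 8 fibroblast markers from 5.63 (Fap) to 12.83 (Dcn). In the arrays without Cre, the 3 measured Y-linked genes had means of 4.68 to 5.29. Which cell types the arrays hold was not tested.

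Aqp1 and Atp1b1 were the members that stood apart between the groups by a wide margin. Aqp1 was 6.19-fold and Atp1b1 4.76-fold higher in cells with Tie2-Cre, while the other 5 members differed by at most 0.15 log2 in either direction. In the fit over all genes, 2 of the 7 members passed the threshold as higher and 0 as lower, where 12.0% of all genes passed in either direction. The median difference over the 7 was 0.04 log2, and over all genes it was -0.0042. The arrays of the 2 groups did not overlap in 3 of the 7 members, and they did not overlap in 31.0% of all genes. Nothing is read from these counts, since the members were picked with this contrast known.

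Aqp1 encodes aquaporin-1, a channel selective for water. Its log2 intensity was 10.35, 10.65 and 10.68 in Tie2-Cre mice 1, 3 and 4, against 7.95, 7.88 and 7.97 in no Cre mice 6, 7 and 10. All 3 arrays with Tie2-Cre were higher than all 3 without Cre, and 2.38 log2 lay between the nearest arrays of the groups. On the linear scale the signal was 1302 to 1646 with Tie2-Cre and 235.1 to 250.0 without Cre. The mean was 10.56 ± 0.19 with Tie2-Cre and 7.93 ± 0.047 without Cre (SD, n = 3 mice each), a difference of 2.63 log2 (SE 0.10). By size this was number 9 among the rises of all 22180 genes. Mouse 1 was the lowest of the Tie2-Cre mice. The difference ran from 2.55 to 2.74 log2 over the other settings tried, single mice left out included.

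Atp1b1 encodes the beta-1 subunit, the widespread form of the beta subunit, which also takes part in adhesion between cells. Its log2 intensity was 9.53, 9.62 and 9.55 in Tie2-Cre mice 1, 3 and 4, against 7.05, 7.39 and 7.51 in no Cre mice 6, 7 and 10. The groups did not overlap, with 2.02 log2 between their nearest arrays. On the linear scale the signal was 739.5 to 785.4 with Tie2-Cre and 132.5 to 182.8 without Cre. The mean was 9.57 ± 0.045 with Tie2-Cre and 7.32 ± 0.24 without Cre (SD, n = 3 mice each), a difference of 2.25 log2 (SE 0.12) and number 12 among the rises. For Atp1b1 the wider spread was among the mice without Cre, where mouse 6 was low, and for Aqp1 it was among the Tie2-Cre mice. Over the same settings, the difference of Atp1b1 ran from 2.12 to 2.35 log2. In bulk RNA, more cells of a type and more RNA per cell cannot be told apart, which holds for both genes.

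**Figure D1:**
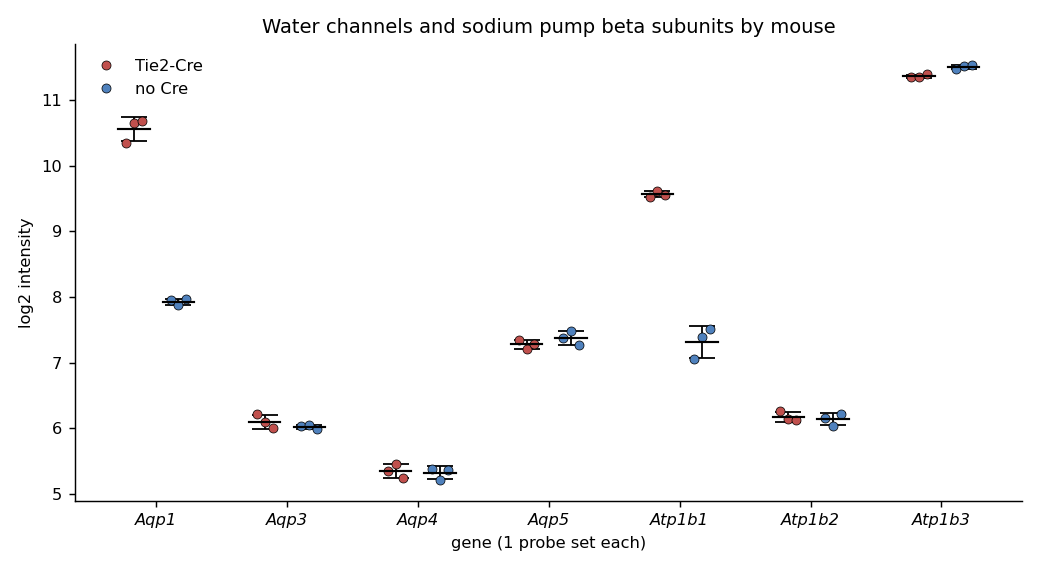
Log2 intensity (y axis) of the 4 water channels and 3 sodium pump beta subunits (x axis), with 1 point per mouse, Tie2-Cre left of no Cre, a bar at the mean and the SD as error bars (n = 3 mice each). The Tie2-Cre points of Aqp1 (10.35 to 10.68) and Atp1b1 (9.53 to 9.62) lie far above those without Cre, Atp1b3 is slightly lower with Tie2-Cre, and the other genes overlap.

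The sequences just upstream of the starts of Aqp1 and Atp1b1 are shown because these 2 genes carry the difference. Each run holds the 250 bases before the annotated start, from RefSeq on GRCm38.p6, at chr6:55336049-55336298 on the plus strand for Aqp1 and at chr1:164458356-164458605 on the minus strand for Atp1b1. Capitals mark matches to the GC box GGGCGG on either strand, the letters bound by Sp1-type factors.
Aqp1: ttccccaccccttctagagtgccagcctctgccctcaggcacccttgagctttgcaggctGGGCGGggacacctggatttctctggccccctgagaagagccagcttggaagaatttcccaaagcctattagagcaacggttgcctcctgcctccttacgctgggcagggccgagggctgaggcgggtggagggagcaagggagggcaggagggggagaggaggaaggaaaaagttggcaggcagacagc
Atp1b1: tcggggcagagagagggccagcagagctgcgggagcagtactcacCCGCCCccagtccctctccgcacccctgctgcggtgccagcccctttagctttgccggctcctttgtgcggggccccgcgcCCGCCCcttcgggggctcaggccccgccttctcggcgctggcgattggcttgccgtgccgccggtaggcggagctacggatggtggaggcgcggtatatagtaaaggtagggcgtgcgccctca

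Both upstream windows held the GC box, with 1 match for Aqp1 (190 bases before the start) and 2 for Atp1b1 (205 and 124 bases before it). The same letters occurred in 32.7% of 32851 RefSeq windows of this length. Neither window held the core of the HIF element (ACGTG, in 16.6% of all windows), TGGAAA, the start of the tonicity element bound by Nfat5 (18.6%), the AP-1 element TGANTCA (6.75%) or TATAAA (12.4%), all searched on both strands. GC content was 62.0% for Aqp1 and 70.4% for Atp1b1. Windows of 5 of the 7 members were used, 6 windows in all, and those of Aqp4 and Atp1b2 were not. Of the 6, 5 held a GC box, among them that of Aqp3, which differed little between the groups. A match is a run of letters and says nothing on whether a factor binds there.

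The other water channels were at similar levels in both groups. Aqp3, the aquaglyceroporin of skin and kidney, had log2 intensities of 6.21, 6.09 and 6.00 in Tie2-Cre mice 1, 3 and 4 and of 6.03, 6.04 and 5.98 in no Cre mice 6, 7 and 10, a difference of 0.08 (SE 0.076). Aqp4, the main water channel of astrocytes, had 5.35, 5.45 and 5.24 with Tie2-Cre and 5.38, 5.21 and 5.37 without Cre, a difference of 0.03 (SE 0.084). Aqp5, the channel of salivary, tear and airway glands, had 7.35, 7.21 and 7.29 with Tie2-Cre and 7.37, 7.49 and 7.27 without Cre, a difference of -0.10 (SE 0.081). The groups overlapped in all 3 genes, and for Aqp4 the sign turned under other settings (-0.03 to 0.08). Aqp3 ran from 0.03 to 0.13 and Aqp5 from -0.15 to -0.04. These SEs are near the median SE of all genes, 0.087 log2. For scale, the 3 measured Y-linked genes had mean levels of 4.68 to 5.29 log2 in the arrays without Cre, where Xist was high. Probe sets differ in background, so these values do not show whether Aqp3 or Aqp4 was expressed.

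Of the other beta subunits, Atp1b2 did not differ by more than its spread and Atp1b3 was slightly lower with Tie2-Cre. Atp1b2, the beta-2 subunit of glia, also known as an adhesion molecule on them, had log2 intensities of 6.26, 6.14 and 6.12 in Tie2-Cre mice 1, 3 and 4 and of 6.16, 6.03 and 6.22 in no Cre mice 6, 7 and 10, a difference of 0.04 (SE 0.078). Its sign turned under other settings (-0.02 to 0.08). Atp1b3, the beta-3 subunit, had 11.35, 11.35 and 11.39 with Tie2-Cre and 11.48, 11.52 and 11.54 without Cre. Its groups did not overlap, although only 0.086 log2 parted their nearest arrays. The difference was -0.15 (SE 0.063), or 1.11-fold higher without Cre, and 38.6% of all genes differed by at least as much. It ran from -0.16 to -0.12 over the other settings. The 3 beta subunits thus showed differences of 2.25, 0.04 and -0.15 log2, each within its own probe set. Intensities of different probe sets cannot be set against each other, so the share of each beta subunit in the pool is unknown.

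**Figure D2:**
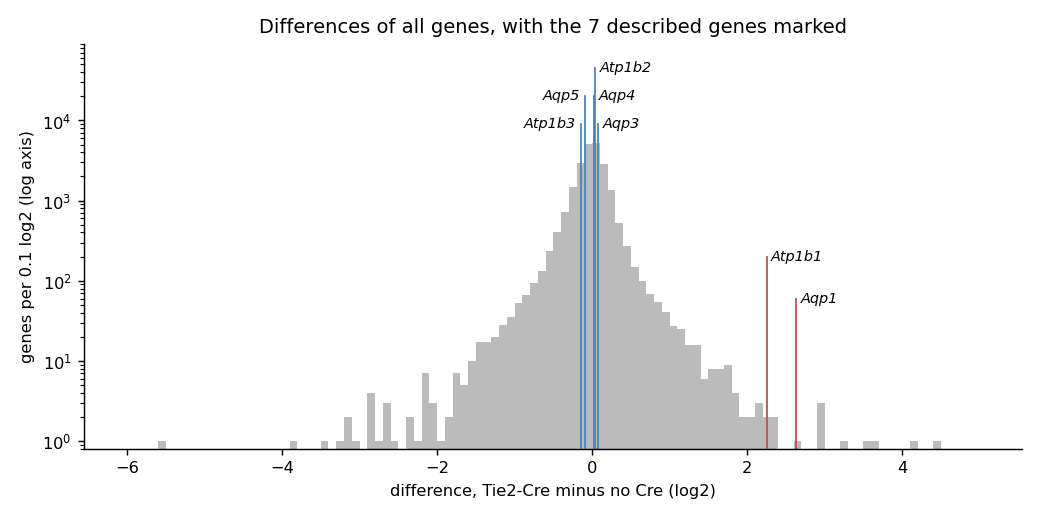
Number of genes per 0.1 log2 (y axis, log scale) by their difference, Tie2-Cre minus no Cre (x axis), for all 22180 genes, with a line at each of the 7 described genes. Aqp1 (2.63) and Atp1b1 (2.25) lie in the sparse right tail, and the other 5 lie within 0.15 log2 of 0.

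Genes that work with the pump or with the water channels were taken as 8 lists by function, 77 genes in all, of which 67 were measured. Of these, 9 rose and 10 fell with Tie2-Cre and 48 did not pass the threshold (limma, adjusted over all genes), so that 28.4% passed, against 12.0% of all genes. Their median difference was 0.0065 log2, and the groups did not overlap in 33 of the 67, against 31.0% of all genes. The other 10 genes were not analysed here. Nothing is read from these shares, since the lists were chosen with earlier results of these data known.

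Among regulators of the pump, phospholemman (Fxyd1), a small membrane protein that restrains the pump until it is phosphorylated, rose with Tie2-Cre. It had log2 intensities of 10.83, 10.67 and 10.66 in Tie2-Cre mice 1, 3 and 4, against 9.35, 9.38 and 9.37 in no Cre mice 6, 7 and 10. No array of one group came near the other, and the difference was 1.36 (SE 0.072, limma adjusted p 3.23e-05), a 2.56-fold change. It was the only one of the 6 measured FXYD genes to pass. Fxyd5, known as dysadherin, differed by 0.24 (SE 0.070, limma adjusted p 0.0668), and passed in 3 of 14 other settings. The gamma subunit gene Fxyd2 differed by 0.09 (SE 0.10), Fxyd4 by 0.04 (SE 0.091), Fxyd6 by -0.18 (SE 0.13) and Fxyd7 by 0.17 (SE 0.096), with limma adjusted p between 0.322 and 0.852. Atp1a4, the catalytic subunit of sperm, differed by 0.30 (SE 0.13, limma adjusted p 0.185).

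The remaining 8 aquaporins gave no call, with 0 of 8 past the threshold and a median difference of 0.04 log2. The largest difference among them was that of Aqp9, a channel for water and glycerol (0.27, SE 0.084, limma adjusted p 0.081). Of Atp1b4, Atp4a, Atp4b and Atp12a, which encode a related beta protein of muscle and subunits of proton pumps, 0 of 4 passed.

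Proteins that bind or modulate the pump passed in 2 of 12 genes. Nkain2, of a family that binds the beta-1 subunit, fell with Tie2-Cre. Its log2 intensity was 6.95, 7.24 and 7.13 in Tie2-Cre mice 1, 3 and 4, against 8.08, 8.08 and 8.05 in no Cre mice 6, 7 and 10. The difference was -0.96 (SE 0.086, limma adjusted p 0.000413), and the groups did not overlap. Agrn, which encodes agrin, a matrix proteoglycan known to bind the pump, rose by 0.67 (SE 0.093, limma adjusted p 0.00303). In the list built around the complex that anchors Aqp4 at membranes, 3 of 8 rose and 1 fell. The cation channel Trpv4, which opens on cell swelling, rose by 0.80 (SE 0.12, limma adjusted p 0.00449), and the adaptor beta-1-syntrophin (Sntb1) by 0.57 (SE 0.11). Dystroglycan (Dag1) rose by 0.30 (SE 0.077, limma adjusted p 0.0431), a call lost in 6 of 14 other settings, 5 of which leave out 1 mouse, each mouse but Tie2-Cre mouse 1 (adjusted p 0.0759 to 0.134). Alpha-dystrobrevin (Dtna) fell by 0.89 (SE 0.12, limma adjusted p 0.00234). Kcnj10, the potassium channel found beside Aqp4 in astrocytes, differed by 0.09 (SE 0.075, limma adjusted p 0.542).

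Of 15 measured ion transporters and channels, 2 rose and 3 fell. The sodium bicarbonate cotransporter Slc4a4 fell, with log2 intensities of 8.16, 8.14 and 8.54 in Tie2-Cre mice 1, 3 and 4, against 9.58, 9.65 and 9.57 in no Cre mice 6, 7 and 10. All Tie2-Cre arrays were below all arrays without Cre, and the difference was -1.32 (SE 0.11, limma adjusted p 0.000327). The phosphate carriers Slc20a1 (-0.84, SE 0.079) and Slc20a2 (-0.38, SE 0.088) fell as well, and Slc12a2, the sodium potassium chloride cotransporter NKCC1, rose by 0.52 (SE 0.093, limma adjusted p 0.00942). Slc12a4, a potassium chloride cotransporter, rose by 0.29 (SE 0.063). The call of Slc12a4 was lost without any 1 mouse other than Tie2-Cre mouse 3 (adjusted p 0.0518 to 0.0759), and that of Slc20a2 without any 1 mouse other than Tie2-Cre mouse 1 (0.0539 to 0.0977). The epithelial sodium channel genes Scnn1a, Scnn1b and Scnn1g differed by -0.15 to 0.08 log2 and did not pass.

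Genes of WNK signalling and of the response to osmotic stress changed both ways, with 2 of 13 higher and 5 lower. The kinase gene Sgk1 fell by 0.76 (SE 0.092, limma adjusted p 0.00161), Wnk3 by 0.55 (SE 0.075) and Stk39, a kinase that WNK kinases switch on, by 0.40 (SE 0.061). The osmotic stress chaperone Hspa4l fell by 0.68 (SE 0.11). Nfat5, the transcription factor of the tonicity response, fell by 0.30 (SE 0.069, limma adjusted p 0.0287), and its call was lost with each mouse left out (adjusted p 0.0512 to 0.0938). The taurine transporter Slc6a6, a known target of Nfat5, rose by 0.85 (SE 0.081, limma adjusted p 0.000575), and Lrrc8a, a subunit of the anion channel that regulates cell volume, by 0.36 (SE 0.066). For Slc6a6 the log2 intensities were 12.59, 12.55 and 12.76 in Tie2-Cre mice 1, 3 and 4 and 11.71, 11.82 and 11.83 in no Cre mice 6, 7 and 10, with no overlap.

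**Figure D3:**
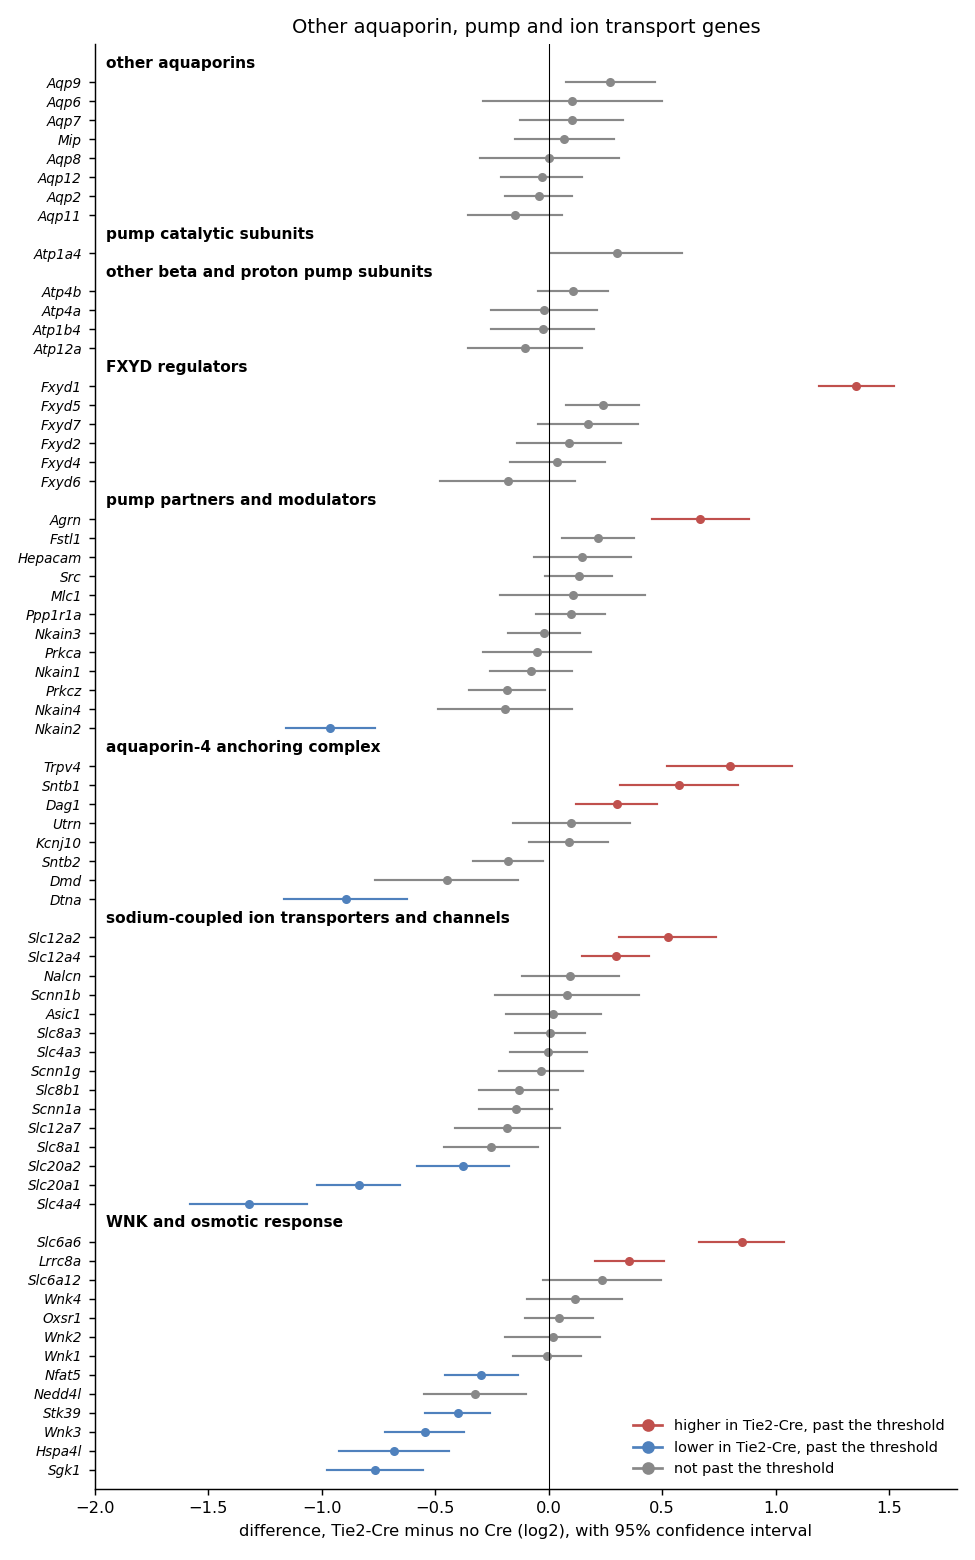
Difference, Tie2-Cre minus no Cre (x axis, log2, point with its 95% confidence interval from limma), of the 67 measured genes of the 8 lists (rows, grouped by list). Red marks genes past the threshold as higher and blue those past it as lower, with Fxyd1 (1.36) at the high end and Slc4a4 (-1.32) at the low end.

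Outside the 7 members, without Gm-numbered, Rik or small RNA symbols, Postn was the gene whose levels ran closest to those of both Aqp1 and Atp1b1. Likeness was measured as the root mean square difference between 2 genes over the 6 arrays, after each gene was centred on its own mean, and with 2 groups so far apart it reflects mainly the size of the group difference. Postn encodes the matrix protein periostin and Islr a secreted protein of stromal cells. For Aqp1 the nearest genes outside the members were Postn (0.21 log2), Islr (0.23) and the transcription factor Dach1 (0.29). For Atp1b1 they were Postn (0.086), Cthrc1, a secreted protein of activated fibroblasts (0.16), and Dach1 (0.20). Aqp1 and Atp1b1 were 0.26 log2 from each other. Postn was at 9.39, 9.61 and 9.61 in Tie2-Cre mice 1, 3 and 4. In no Cre mice 6, 7 and 10 it was at 6.87, 7.24 and 7.41. Nothing is read from the order of mice within a group, since these genes were picked for their likeness.

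**Figure D4:**
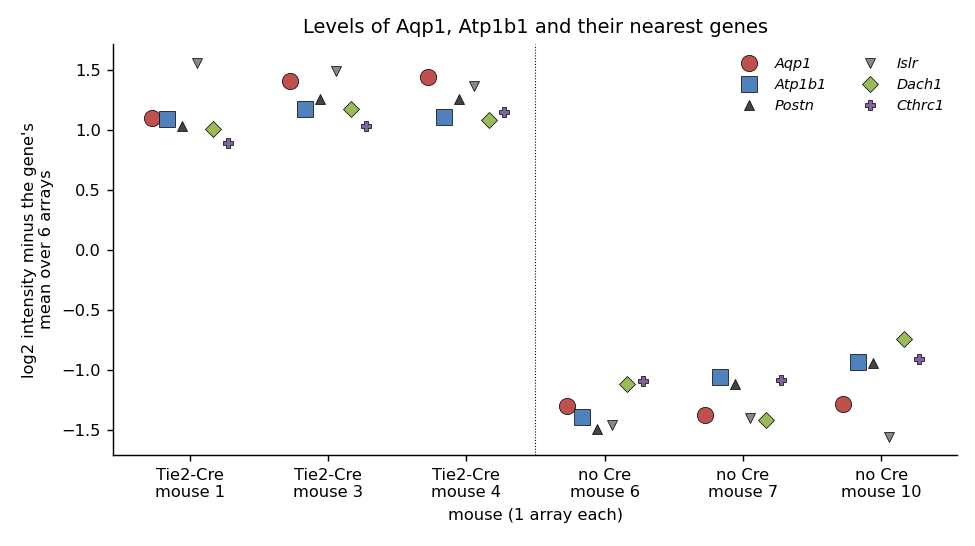
Log2 intensity minus the mean of the gene over the 6 arrays (y axis) for Aqp1, Atp1b1 and their nearest genes, by mouse (x axis, 1 array each, Tie2-Cre left of no Cre). All 6 genes lie above their mean in the 3 Tie2-Cre mice and below it in the 3 mice without Cre.

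Some markers of other cell types also differed between the groups, while most of those measured did not pass the threshold. Of all genes, 4.78% passed as higher and 7.17% as lower. Nothing is read from the counts per list, since the markers were chosen with their values known. Summed intensities are given per list, and a sum on the linear scale weighs bright probe sets most. Of 10 pericyte and smooth muscle markers, 5 were higher and 0 lower with Tie2-Cre (median difference 0.41 log2). Those higher were Rgs5 (1.45), Myh11 (0.92), Cspg4 (0.67), Acta2 (0.47) and Pdgfrb (0.27). Myh11 was at 10.05 in Tie2-Cre mouse 4, against 9.05 in mice 1 and 3. The summed linear intensity of the 10 was 29422 to 34164 with Tie2-Cre and 20986 to 22570 without Cre. Of 8 fibroblast markers, 3 were higher, Pdgfra (1.65), Lum (1.27) and Thy1 (0.87), and 1 was lower, Dcn (-0.76), with a median difference of 0.08 and sums of 17016 to 19055 with Tie2-Cre and 18907 to 19170 without Cre. For 10 epithelial and mesothelial markers, 0 were higher and 2 lower, Upk3b (-1.36) and Krt19 (-0.42), with a median difference of -0.04 and sums of 1411 to 1530 with Tie2-Cre and 2096 to 2482 without Cre. Among 9 astrocyte markers S100b was higher (0.57) and Gja1 lower (-1.19), with a median difference of 0.14 (sums of 1707 to 2030 with Tie2-Cre, 2017 to 2174 without Cre). The 9 macrophage and microglia markers gave 0 higher and 2 lower, Cd68 (-0.99) and Csf1r (-0.42), with a median difference of -0.0096 (sums of 975 to 1088 with Tie2-Cre, 1159 to 1230 without Cre). The sum of the 12 endothelial markers, 4278 to 4376 with Tie2-Cre and 5075 to 5253 without Cre, is mostly Eng, the 1 that was lower (-0.30). Of 5 measured markers of choroid plexus epithelium, known for Aqp1, 0 passed, with a median difference of -0.08 (sums of 423 to 440 with Tie2-Cre, 449 to 463 without Cre). Red blood cells also carry Aqp1, and the 1 marker of theirs that was measured, Slc4a1, differed by 0.10 (limma adjusted p 0.711). The part of these cell types in the differences was not tested.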

How the data were processed

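RNA of 6 mice was measured on Affymetrix Mouse Gene 2.0 ST arrays, 1 array per mouse. Per the labels, the deposited intensity values are RMA values that the authors derived with Affymetrix Expression Console, whose version was not stated. The deposited intensities were linear, from 5.13 to 17822, and log2 was taken with no further scaling. RMA compresses the differences of dim genes.

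Of 41345 probe sets, 23521 carried a single gene symbol in the annotation, 1814 carried more than that, and 16010 had no entry. The brightest probe set per symbol left 22180 genes, and 23328 single-symbol probe sets had an identifier in RefSeq, with 0 symbols changed. The groups were compared with limma 3.58.1 in R 4.3.3 (lmFit, eBayes, two-sided), adjusted by Benjamini-Hochberg over all genes, and the pipeline was tested on simulated data. The 3 mice per group limit the precision, and mouse numbers pair no mice.

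The members, lists and tests were chosen with earlier results of these data known. Named were the 7 members, every list gene past the threshold, all FXYD genes measured, Atp1a4 and, for members with a difference of at least 1 log2, the 3 nearest genes outside the members, without Gm-numbered, Rik or small RNA symbols. Aqp9, Kcnj10, the Scnn1 genes and the marker genes were chosen with their values already known. Alternatives tried were a minimum mean log2 of 5, renewed quantile normalization, median centring, log2(value + 16), the mean of the probe sets, all probe sets, eBayes with trend and robust, array weights, and leaving out each mouse.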

Additional observations from a re-analysis of the deposited data

How the results depend on the processing

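With single mice left out, 634 to 903 genes were higher and 910 to 1253 lower, against 1061 and 1591 with all mice. The higher count was 667, 676 and 634 without no Cre mouse 6, 7 and 10, and the lower count was 1046 without Tie2-Cre mouse 1 and 1022, 910 and 1026 without no Cre mouse 6, 7 and 10. These fits have fewer arrays. Among the 67 related genes, 7 to 8 were higher and 8 to 9 lower with single mice left out, against 9 and 10. Under the other settings all 4 counts stayed within 1.5 times. Aqp1 and Atp1b1 moved by less than 1 SD in 12 of 12 settings each, and Atp1b3 by more than that in 1 (-0.12 after renewed quantile normalization). The minimum mean log2 of 5 and the mean of the probe sets could not change these differences. Each member has 1 probe set, with a mean log2 above 5. The calls of Dag1, Nfat5, Slc12a4 and Slc20a2 were lost with all probe sets tested (adjusted p 0.101, 0.0732, 0.0572 and 0.0768), where more features are tested, and that of Slc12a4 also with the mean of its probe sets (0.0520). Fxyd5 passed with renewed quantile normalization (adjusted p 0.0342), with log2(value + 16) (0.037) and under the trended, robust eBayes (0.00792), and its adjusted p spanned 0.00792 to 0.185 over all settings. No paired analysis was possible because the groups share no mouse numbers. No background correction could be varied beyond the added constant, and without detection calls the arrays do not settle whether members of low signal such as Aqp4 are expressed.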
